A study of Mus musculus with 4 samples.

Results

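The long noncoding RNAs described here are the transcripts of 7 genes, Malat1, Neat1, Miat, Tug1, Rmst, Gas5 and Snhg11, in sorted cells of the postnatal mouse retina. They were taken by gene symbol from gene tables that hold 21829 genes after small RNAs were left out. All 7 symbols were present, each on 1 line, and all 28 values had been estimated without a failure. The mice were of the FVB/N strain and carried the transgene pHes1-EGFP, in which a 2.5-kb piece of the Hes1 promoter drives a short-lived EGFP. Retinas were taken at postnatal day 1 (P1) and postnatal day 4 (P4), with no further treatment, and their cells were sorted into an EGFP-positive fraction (pHes1_EPCs) and an EGFP-negative fraction (pHes1_ENCs). All animals of all 4 groups thus carried the transgene, and the fractions are defined by the activity of this promoter piece and not by a cell type. Each group is represented by 1 library. How many animals were pooled for it is not given in the sources used here.

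Long noncoding RNAs are made by the same polymerase as messenger RNAs, and many are capped and spliced, but they are not translated into a conserved protein. Malat1 RNA gathers in nuclear speckles, where splicing factors are stored, and the long form of Neat1 is the scaffold of paraspeckles. Miat, also called Gomafu or RNCR2, is a nuclear RNA known from the retina and brain, where it was described in progenitors and postmitotic neurons. Tug1 was first described as an RNA needed for photoreceptor development, and Rmst as an RNA tied to neurogenesis that partners with Sox2. Gas5 and Snhg11 are hosts of small nucleolar RNAs (snoRNAs), which are cut from their introns and guide the modification of ribosomal RNA. The exons of Gas5 left after splicing are degraded by nonsense-mediated decay when they are translated.

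The values are FPKM, that is, fragments per kilobase of transcript, scaled to the size of the library, with the 95% interval that the quantifier gave for each value. Since FPKM is divided by transcript length, levels can be set side by side between genes. A difference between libraries is given as the difference of log2(FPKM + 1), which is smaller than the true log2 ratio for genes of low FPKM, and it is called when it is beyond 1, a change of about 2-fold or more in genes of high FPKM. With 1 library per group there was no replicate check and no test, and the intervals do not cover variation between libraries or animals. The reads behind each library, inferred from the width of the intervals as if it came from counting alone, numbered 10.7 to 11.3 in units of 1e6. As a check of the labels, Hes1 stood at 16.6 in P1 pHes1_ENCs, 105 in P1 pHes1_EPCs, 3.59 in P4 pHes1_ENCs and 93.5 in P4 pHes1_EPCs. All 10 markers of Müller glia and late progenitors were called higher in pHes1_EPCs at both ages. Rod markers, 7 in all, were called lower there in 6 cases for P1 and in 7 for P4. The deposited FPKM lay above its own interval in 23 of 40 values of the first list. Of the 28 rod values 9 lay above and 2 below. The libraries were not on quite the same scale: over the 5053 genes that reached an FPKM of 10 everywhere, the fractions differed in the median (log2, pHes1_EPCs minus pHes1_ENCs) by 0.05 for P1 and by 0.20 for P4, and the median change from P1 to P4 was 0.07 in pHes1_ENCs and 0.27 in pHes1_EPCs. Differences below are to be read against these medians.

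The 7 RNAs fell into an abundant and a scarce group. Miat, Malat1, Tug1 and Gas5 had an FPKM between 25.0 and 384 in every library, whereas Neat1, Rmst and Snhg11 stayed between 0.170 and 2.18. In P1 pHes1_ENCs the order from the highest was Miat, Malat1, Tug1, Gas5, Snhg11, Rmst and Neat1, and the intervals of no neighbours in this order overlapped. The order in P1 pHes1_EPCs was the same except that Gas5 stood above Tug1, and the intervals of Rmst and Neat1 overlapped. In P4 pHes1_ENCs Malat1 was the highest and Miat came next, and in the scarce group the order was Neat1, Rmst, Snhg11. In P4 pHes1_EPCs the order was Miat, Gas5, Malat1, Tug1, Rmst, Neat1 and Snhg11, with overlapping intervals for Malat1 and Tug1 and for Rmst and Neat1.

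**Figure D1:**
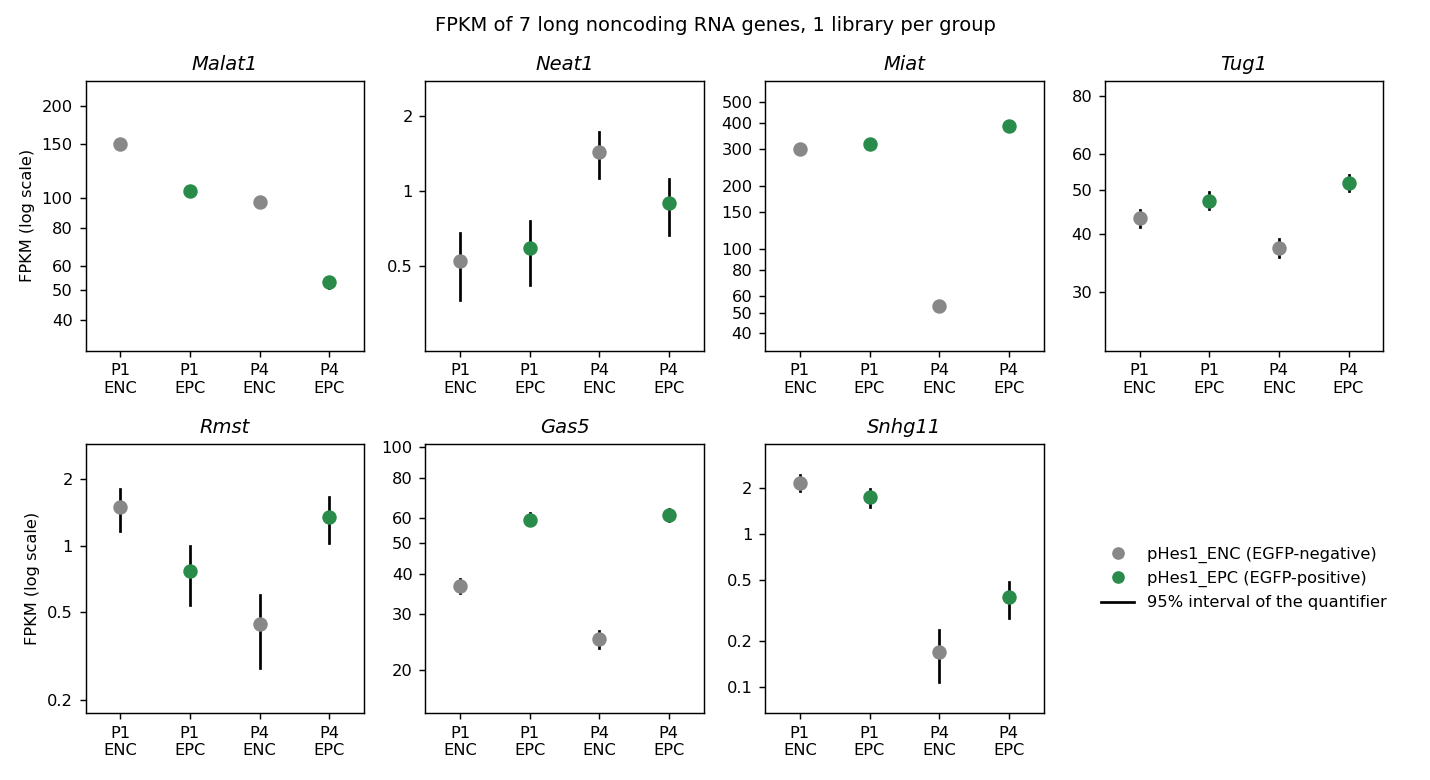
FPKM (log axis) of each of the 7 genes in the 4 libraries, pHes1_ENCs in grey and pHes1_EPCs in green, with the 95% interval of the quantifier as a black line. Miat stands near 300 or above in 3 libraries and at 53.9 in P4 pHes1_ENCs, and Gas5 is higher in the green points at both ages.

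Among 918 genes that RefSeq classes as long noncoding and that the tables list, Miat ranked 1 in P1 pHes1_ENCs, P1 pHes1_EPCs and P4 pHes1_EPCs, and 7 in P4 pHes1_ENCs. Malat1 ranked 3, 5, 2 and 13 in P1 pHes1_ENCs, P1 pHes1_EPCs, P4 pHes1_ENCs and P4 pHes1_EPCs. Tug1 ranked 12 to 14 and Gas5 ranked 9 to 22, so 4 of the 7 genes were among the most abundant RNAs of this class. The scarce genes Neat1, Rmst and Snhg11 ranked from 129 to 348.

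Miat showed the widest differences of the 7 genes on the log2(FPKM + 1) scale. It lies on the minus strand of chromosome 5, at chr5:112642248-112657968 in NCBI37/mm9, and its annotated transcript has 7 exons and 8760 bases after splicing. This RNA is known for short repeats of the letters TACTAAC, which resemble the branch point that the splicing factor Sf1 reads in introns and contain the core of the element bound by Quaking, the product of Qk. Read along the transcript (the transcribed strand only), the annotated Miat sequence holds 6 matches, all in exon 7, the last and longest. They form a pair of groups of 3, which are shown here because these letters set Miat apart from the other members. The matches are in capitals, with 10 bases of flank, on the strand of the gene.
Miat exon 7, chr5:112646329-112646480 (minus strand): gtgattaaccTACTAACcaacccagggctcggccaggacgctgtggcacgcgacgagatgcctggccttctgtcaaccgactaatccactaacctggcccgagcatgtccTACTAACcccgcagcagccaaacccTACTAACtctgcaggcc
Miat exon 7, chr5:112645772-112645832 (minus strand): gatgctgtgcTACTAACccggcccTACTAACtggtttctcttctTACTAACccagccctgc

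The first group covers bases 4528 to 4679 of the spliced transcript, flanks included, and the second bases 5176 to 5236. Of 3846 annotated noncoding transcripts, taken as the longest of each gene, 142 (3.69%) held at least 1 match, and the highest number outside Miat was 4. Of the other members, Neat1 held 1 match in its long form of 20771 bases, and Malat1, Tug1, Rmst, Gas5 and Snhg11 held none. A match is a description of the letters and not evidence of binding.

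**Figure D2:**
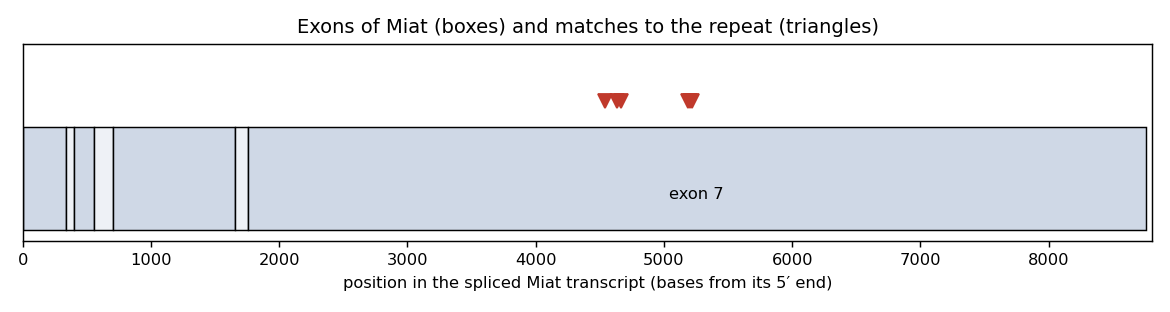
Exons of the spliced Miat transcript as boxes along its length in bases, with the 6 matches to the repeat as triangles. All matches lie in the middle of exon 7, with the first at base 4538 and the last at base 5220.

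The FPKM of Miat was 300 in P1 pHes1_ENCs, 316 in P1 pHes1_EPCs, 53.9 in P4 pHes1_ENCs and 384 in P4 pHes1_EPCs. A single library, P4 pHes1_ENCs, was thus far below the other 3. The fractions hardly differed at P1, where the log2 difference was 0.08 and pHes1_EPCs had 1.05 times the level of pHes1_ENCs (1.03 to 1.08 from the bounds of the intervals, as in all such brackets below). At P4 Miat was 7.11 times as high in pHes1_EPCs (6.92 to 7.43), a log2 difference of 2.81 and the 254th highest of 21829 genes. Within pHes1_ENCs its level at P1 was 5.56 times that at P4 (5.40 to 5.81), a log2 change of -2.45, the 91st lowest of all genes. Within pHes1_EPCs the change from P1 to P4 was 0.28, close to the median of 0.27 among highly expressed genes. The sign of both small differences, between the fractions at P1 and within pHes1_EPCs, turned when the FPKM were rescaled to the same total or quantile normalized, so no direction is read from them. In 3 libraries the FPKM of Miat lay just outside its own interval, as it did for Malat1 in P1 pHes1_ENCs. This was found for 8.84% to 10.2% of all genes, depending on the library, with genes at an FPKM of 0 counted among them. The inferred reads on Miat were 37270, 36967, 5676 and 48694 in the same order, so counting error is small beside the P4 difference.

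The libraries also differed in the levels of cell type markers, between the fractions at P1 as well as at P4, and between the ages. In pHes1_ENCs the summed FPKM of the 10 Müller glia and late progenitor markers was 380 at P1 and 152 at P4, with 7 of them called lower at P4. Their sum in pHes1_EPCs was 1455 at P1 and 2095 at P4. Cycling cell markers summed to 224 in P1 pHes1_ENCs and 62.3 in P4 pHes1_ENCs, where 5 of 6 were called lower, against 963 and 397 in pHes1_EPCs. Rod markers summed to 618 in P1 pHes1_ENCs and 3261 in P4 pHes1_ENCs, with all 7 higher at P4, and to 35.8 and 601 in pHes1_EPCs. No marker of these lists was at 0 in any library. Of the cycling cell values 10 of 24 lay above their own intervals. With the like values of the Müller glia and rod lists given above, these sums are uncertain beyond the intervals. Ganglion cell markers summed to 35.2 in P1 pHes1_ENCs, 20.7 in P1 pHes1_EPCs, 3.79 in P4 pHes1_ENCs and 3.495 in P4 pHes1_EPCs. The sums of the 5 amacrine cell markers found were 106, 9.49, 73.7 and 17.4 in the same order. In P4 pHes1_ENCs 62.6 of the 73.7 was Slc6a9, a glycine transporter, which was called higher with age there (1.66), while Gad1 (-2.98), Gad2 (-2.78), Slc32a1 (-2.48) and Ptf1a (-2.31) were called lower. Bipolar cell markers summed to between 5.41 and 25.4, with Vsx1 at 0 in P1 pHes1_ENCs and Grm6 at 0 in P1 pHes1_EPCs, and microglia markers to between 1.97 and 8.10. Vessel markers summed to between 14.7 and 212, nearly all of it Kdr in pHes1_EPCs and with Cdh5 at 0 in both P4 libraries, and pigment epithelium markers to between 1.27 and 22.4, with Rpe65 at 0 in P1 pHes1_ENCs. Red blood cell markers stood apart between the fractions, with sums of 185, 0.568, 502 and 6.65 in the order above. The part of these shifts in the level of Miat was not tested, and in sorted bulk samples fewer cells that make an RNA and less of it per cell cannot be told apart. This holds for the markers as well as for Miat, so the sums are not counts of cells.

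Genes with a pattern like that of Miat over the 4 libraries were found by the Euclidean distance between log2(FPKM + 1) values centred on the mean of each gene. The 10591 genes compared all reached an FPKM of 1 in every library. The nearest were Mab21l2, an eye development gene, at a distance of 0.0757, and Tbx3, a T-box transcription factor, at 0.308. Mab21l2 stood at 57.1, 63.7, 9.63 and 77.2 in P1 pHes1_ENCs, P1 pHes1_EPCs, P4 pHes1_ENCs and P4 pHes1_EPCs. Tbx3 stood at 23.5, 23.0, 4.43 and 28.5 in the same order. Both have their low value in P4 pHes1_ENCs, as Miat does, and with 4 libraries many genes can share such an order.

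The genes of splicing factors that have been tied to Miat did not share one pattern. Qk stood at 53.3 and 60.1 at P1 and at 17.9 and 66.5 at P4, in pHes1_ENCs and pHes1_EPCs, with log2 differences between the fractions of 0.17 and 1.84, and it fell by 1.52 from P1 to P4 in pHes1_ENCs. It was thus high and low in the same libraries as Miat, and it stood at place 44 of the 10591 genes by likeness to Miat. Celf3, a neuronal splicing regulator, stood at 117 and 4.89 at P1 and at 127 and 25.0 at P4, so it was lower in pHes1_EPCs at both ages, by log2 differences of -4.33 and -2.30. Sf1, the branch point binding protein, stood between 57.2 and 83.9 in the 4 libraries, and Srsf1, a splicing factor, between 107 and 155. Neither was called in any comparison.

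The promoter of Miat is shown because its level was the one that parted most between the fractions. The sequence is that of RefSeq (build GRCm38.p6), from 250 bases before the start of the transcript to 50 after it. It lies at chr5:112228899-112229198 on the minus strand in that build. The same letters were found in NCBI37/mm9 at chr5:112657919-112658218, where its start is that of the gene line. Capitals mark GGGCGG, the box of Sp factors, on either strand.
Miat promoter: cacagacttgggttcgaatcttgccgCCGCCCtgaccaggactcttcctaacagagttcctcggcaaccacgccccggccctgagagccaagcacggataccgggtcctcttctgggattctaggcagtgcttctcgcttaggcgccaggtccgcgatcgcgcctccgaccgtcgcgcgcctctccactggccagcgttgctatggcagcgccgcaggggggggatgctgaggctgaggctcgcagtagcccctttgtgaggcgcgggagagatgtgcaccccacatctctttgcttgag

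It holds 1 GGGCGG, which 35.9% of 27025 promoters of the same length hold. The letters CANNTG (the E-box of basic helix-loop-helix factors), CACNAG (the N-box of Hes factors), TGGGAA (read by Rbpj) and TAATCC (read by Crx and Otx2) were not found in this window on either strand. They are held by 72.1%, 42.6%, 25.5% and 7.16% of promoters, and matches to different motifs may share bases. That these letters are not in the window says nothing about the factors themselves. Promoters of 5 members were in the RefSeq table, and those of Neat1 and Rmst were not.

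Gas5 was the other member called between the fractions. It lies on the plus strand at chr1:162965297-162968668 in NCBI37/mm9, with 25 annotated transcripts and 9 annotated snoRNAs inside the gene on the same strand. Its FPKM was 36.8 in P1 pHes1_ENCs, 59.3 in P1 pHes1_EPCs, 25.0 in P4 pHes1_ENCs and 61.3 in P4 pHes1_EPCs. Both pHes1_EPC values were above both pHes1_ENC values. The pHes1_EPC level was 1.61 times the pHes1_ENC level (1.48 to 1.78) for P1 and 2.45 times (2.22 to 2.74) for P4, with log2 differences of 0.67 and 1.26. The P4 value passed the threshold as deposited and dropped below it, to 0.97, when FPKM were rescaled to the same total. In pHes1_ENCs the level at P1 was 1.47 times that at P4 (1.31 to 1.66), and in pHes1_EPCs the intervals of both ages overlapped.

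Over all 21829 genes, 6.10% were called higher in pHes1_EPCs and 6.79% lower at P1, and none of the 7 members was called at that age. At P4 9.85% of genes were called higher and 5.42% lower, and Miat and Gas5, 2 of the 7, were called higher. These P4 shares depended on the scaling: they were 7.03% and 7.64% with the FPKM sums made equal, 7.78% and 6.86% with median-of-ratios scaling, and 7.06% and 7.11% with quantile normalization. Among genes that reached an FPKM of 1 in the higher library, 17.4% were called higher and 9.56% lower at P4 as deposited. The median over the members was 0.06 for P1 and 0.46 for P4. Over all genes it was 0, and over genes that reached an FPKM of 1 in 1 library or more it was 0.02 and 0.15. The intervals of the fractions were apart for 5 members at P1, where 43.9% of all genes had this, and for 7 members at P4, where 46.9% did. For genes that reached an FPKM of 1 in the higher library these shares were 68.5% and 74.8%. Among the 257 RefSeq long noncoding genes that reached an FPKM of 1 in 1 library or more, 16% were called higher and 10.5% lower at P4, against 16.9% and 9.31% of 11074 protein-coding genes.

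**Figure D3:**
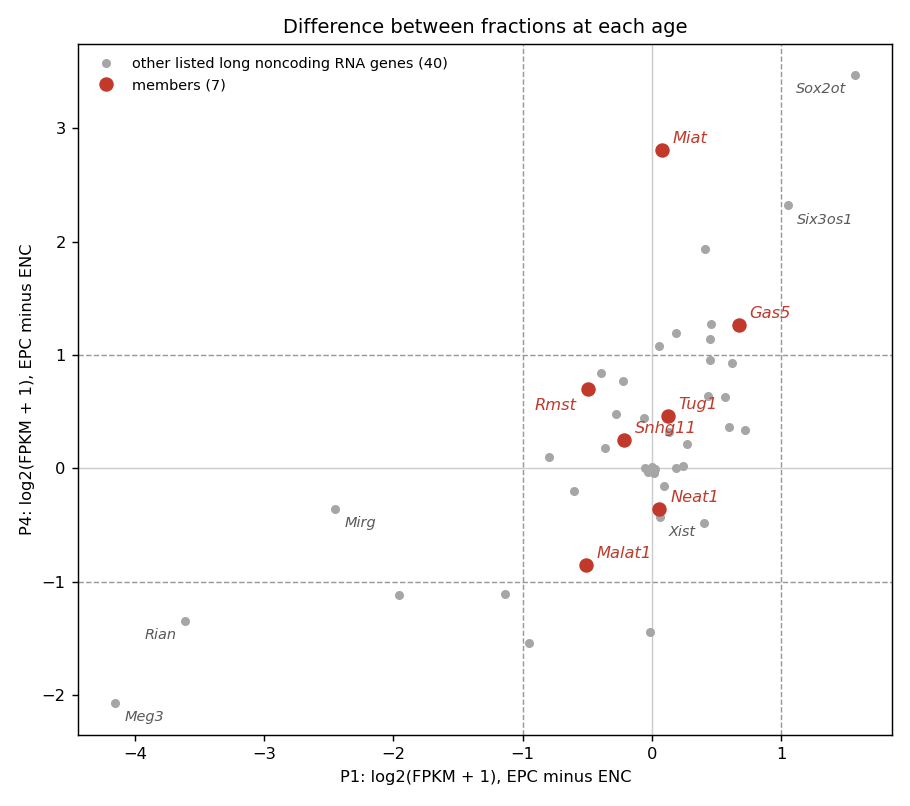
Difference of log2(FPKM + 1) between pHes1_EPCs and pHes1_ENCs at P1 (horizontal axis) and P4 (vertical axis) for the 7 members in red and 40 other listed long noncoding RNA genes in grey; dashed lines mark the threshold of 1. Miat sits at 0.08 and 2.81, Gas5 at 0.67 and 1.26, and Malat1 below 0 on both axes.

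The other snoRNA host genes were nearly all higher in pHes1_EPCs as deposited, as Gas5 was. Of 16 listed hosts 10 were found, and all 10 were above 0 at P4, with a median of 0.89, though Snhg10 stood at 0.002. The median over highly expressed genes was 0.20 there, and the share of all genes above or below 0 was not counted for this or the other lists. At P1 9 of 10 were above 0, with a median of 0.31 and none called. Snhg5 stood at 25.5 in P4 pHes1_ENCs and 63.1 in P4 pHes1_EPCs, a log2 difference of 1.27, and Snhg6 stood at 36.1 and 83.7, a difference of 1.19. Snhg7 (1.08) and Snhg4 (1.14) were also called, so 4 of 10 were. Of all genes 9.85% were called higher at P4, and of those that reached an FPKM of 1 in the higher library 17.4% were. The number of hosts called at P4 was 0 with FPKM rescaled to the same total and 1 with median-of-ratios scaling or quantile normalization, while 9 of 10 stayed above 0 under each of these. Snhg1, the most abundant host at P4, stood at 62.9 and 120 there, with a difference of 0.93. The deposited FPKM of these hosts lay above their own 95% intervals in 22 of 40 values, over 6 of the 10 genes. In P4 pHes1_EPCs the interval was 38.9 to 49.1 for Snhg6 and 48.2 to 56.0 for Snhg5, so the levels of these genes are uncertain beyond counting error.

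Snhg11, a further host, was not called between the fractions. It lies on the plus strand at chr2:158201374-158211881 with 5 exons, and contains a pair of SNORA71 copies. GENCODE of this build types the gene as protein coding, whereas RefSeq types it as long noncoding. Its FPKM was 2.18, 1.74, 0.170 and 0.387 in P1 pHes1_ENCs, P1 pHes1_EPCs, P4 pHes1_ENCs and P4 pHes1_EPCs. Both P1 values were above both P4 values. The log2 difference between the fractions was -0.21 at P1, with overlapping intervals, and 0.25 at P4, on 29 and 57 inferred reads. The P4 intervals were apart, and the pHes1_EPC level was 2.28 times the pHes1_ENC level (1.20 to 4.53), so the small difference on the log2(FPKM + 1) scale understates the ratio.

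Genes for the core proteins of snoRNA particles differed between the fractions in the same direction as Gas5. All 8 were above 0 at both ages, under each scaling, with a median of 0.82 for P1 and 1.09 for P4. At P1 3 were called higher, Nop56, Nop58 and Gar1, with differences of 1.08, 1.07 and 1.11. At P4 5 were called, and Nhp2 showed the largest difference, from 10.9 in pHes1_ENCs to 33.9 in pHes1_EPCs (1.55). As with the hosts, 25 of 32 values of this list lay above their own intervals. With the FPKM sums made equal 1 was called for P1, and under each other scaling 2 were called for P4. The 8 genes of nonsense-mediated decay, the pathway that degrades spliced Gas5, had none called at either age as deposited. With the FPKM sums made equal 1 was called lower at P4, and all 8 were below 0. As deposited 7 of the 8 were below 0 at P4, with a median of -0.45, and Upf1, the helicase of the pathway, stood at 23.9 in pHes1_ENCs and 21.8 in pHes1_EPCs.

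**Figure D4:**
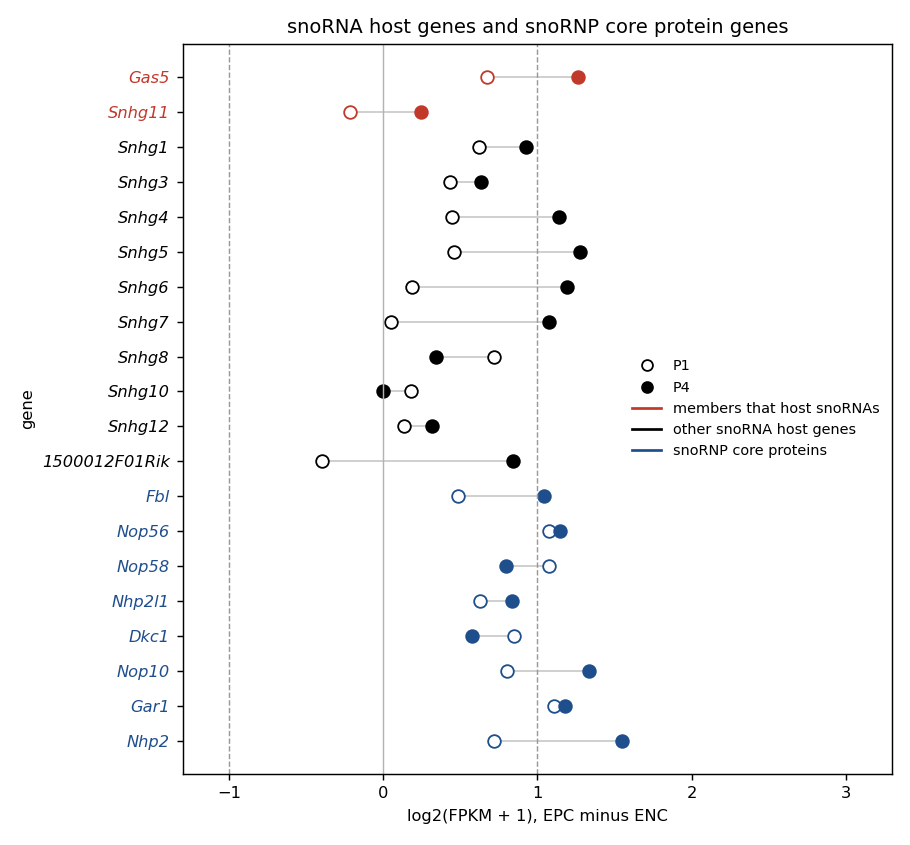
Difference of log2(FPKM + 1) between pHes1_EPCs and pHes1_ENCs at P1 (open circles) and P4 (filled circles) for Gas5 and Snhg11 in red, 10 other snoRNA host genes in black and 8 genes of snoRNA particle core proteins in blue. At P4 all 20 filled circles lie at or above 0 in the FPKM as deposited, from 0.00 for Snhg10 to 1.55 for Nhp2.

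Many snoRNA host genes are known for a start site with a pyrimidine run, the 5′ terminal oligopyrimidine tract that is also found in ribosomal protein genes. The start of the Gas5 gene line coincides with the second of its RefSeq promoters. A run of C followed by at least 4 further C or T, beginning within 5 bases of the start on the transcribed strand, was found for 5 of 9 hosts that had a promoter in the RefSeq table, Gas5 and Snhg11 counted among the 9, and for 16.1% of all 27025 promoters. That share counts the first promoter of each symbol, by which 4 of the 9 hosts have a run, since Gas5 has it at its second. Counting any promoter, 18.6% of symbols have one. The hosts with a run are printed from 10 bases before the start to 20 from it (build GRCm38.p6), with the run in capitals.
Gas5, chr1:161035156-161035185 (plus strand): ccatctcagCCTTTCggagctgtgcggcat
Snhg3, chr4:132353667-132353696 (minus strand): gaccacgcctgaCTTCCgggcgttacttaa
Snhg7, chr2:26640225-26640254 (minus strand): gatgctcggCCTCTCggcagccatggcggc
Snhg8, chr3:123508317-123508346 (minus strand): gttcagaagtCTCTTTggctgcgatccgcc
Snhg12, chr4:132308668-132308697 (plus strand): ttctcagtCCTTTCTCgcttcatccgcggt

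The run stands at the start of Gas5 and Snhg7, which were called in the P4 comparison, and of Snhg3, Snhg8 and Snhg12, which were not. No run was found by this rule for Snhg5, which was called at P4, or for Snhg1, Snhg10 and Snhg11, which were not. Snhg4 and Snhg6, also called at P4, had no RefSeq promoter to read. The second Gas5 promoter (GRCm38.p6, chr1:161034916-161035215, plus strand) is shown for comparison with that of Miat. It holds 3 matches to GGGCGG, in capitals, and like that of Miat none to the other 4 motifs. The first Gas5 promoter holds 5 matches to GGGCGG, 2 to CANNTG (the E-box) and 1 to the Rbpj motif.
Gas5 promoter: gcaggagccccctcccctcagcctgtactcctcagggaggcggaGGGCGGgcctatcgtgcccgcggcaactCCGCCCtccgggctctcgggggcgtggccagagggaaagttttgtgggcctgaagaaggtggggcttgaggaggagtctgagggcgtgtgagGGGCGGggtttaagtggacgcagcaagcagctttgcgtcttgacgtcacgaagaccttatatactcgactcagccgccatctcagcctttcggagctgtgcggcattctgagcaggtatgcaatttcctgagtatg

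Malat1 was the one abundant member that was lower in pHes1_EPCs at both ages. It is a single exon of 6982 bases on the minus strand, at chr19:5795690-5802671, and the gene Gm20417 overlaps it on the opposite strand. Without a stated strand setting, reads of the pair cannot be told apart. Its FPKM was 151 in P1 pHes1_ENCs, 106 in P1 pHes1_EPCs, 97.3 in P4 pHes1_ENCs and 53.2 in P4 pHes1_EPCs. The level was lower at P4 than at P1 in each fraction and lower in pHes1_EPCs than in pHes1_ENCs at each age. At P1 pHes1_ENCs had 1.43 times the level of pHes1_EPCs (1.37 to 1.48) and at P4 1.83 times (1.74 to 1.92), log2 differences of -0.51 and -0.86. Neither was beyond the threshold as deposited. The P4 difference passed it once the FPKM sums were made equal (-1.15), under quantile normalization (-1.13) and under median-of-ratios scaling (-1.06).

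The mRNAs of nuclear speckle proteins, which occupy the compartment where Malat1 RNA gathers, did not move as 1 group. Srsf5 had a failed estimate in some libraries and was left out, and the other 7 genes had 6 values above 0 for P1, with none called, and 5 above 0 for P4. At P4 Srsf3, a small splicing factor, was called higher (1.10), and Son, a large scaffold protein of speckles, was called lower, at 94.2 in pHes1_ENCs and 46.5 in pHes1_EPCs (-1.004). Both calls lie close to the threshold, and that of Srsf3 was lost under each other scaling, since no gene of the list was then called higher.

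Neat1 lies 39.6 kb from Malat1 on the same strand and was scarce. Its gene line, chr19:5842302-5845478, spans 3177 bases and matches the short form, while the annotated gene reaches over 20771 bases, so the long form that builds paraspeckles was not measured by itself. The FPKM was 0.526 in P1 pHes1_ENCs, 0.590 in P1 pHes1_EPCs, 1.43 in P4 pHes1_ENCs and 0.893 in P4 pHes1_EPCs. Both P4 values were above both P1 values, on 45 to 92 inferred reads. In pHes1_ENCs the level at P4 was 2.71 times that at P1 (1.67 to 4.69), a log2 change of 0.67. In pHes1_EPCs the intervals of the ages overlapped. At P1 the intervals of the fractions overlapped, and at P4 pHes1_ENCs had 1.597 times the level of pHes1_EPCs (1.01 to 2.58).

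The mRNAs of core paraspeckle proteins were abundant where Neat1 was scarce, and the proteins themselves were not measured. Sfpq, Nono and Pspc1 are the core RNA-binding proteins of paraspeckles. Sfpq stood between 140 and 247 in the 4 libraries and Nono between 138 and 201, while Pspc1 stood between 22.1 and 27.1. In this list 23 of 36 values lay above their own intervals. None of the 9 genes of the list was called in any comparison. Their median differences between the fractions were 0.33 for P1 and 0.43 for P4, and their median change from P1 to P4 was -0.28 in pHes1_ENCs and -0.18 in pHes1_EPCs.

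Tug1 was the most even of the 7 RNAs. It lies on the minus strand at chr11:3539797-3548811, with 3 exons and 4994 bases after splicing. Its FPKM was 43.4 in P1 pHes1_ENCs, 47.4 in P1 pHes1_EPCs, 37.4 in P4 pHes1_ENCs and 51.8 in P4 pHes1_EPCs. The highest of these values belonged to P4 pHes1_EPCs and the lowest to P4 pHes1_ENCs. The pHes1_EPC level was 1.09 times the pHes1_ENC level (1.001 to 1.19) for P1 and 1.39 times (1.275 to 1.51) for P4, with log2 differences of 0.12 and 0.46. The change from P1 to P4 was -0.21 in pHes1_ENCs and 0.13 in pHes1_EPCs, and the sign of the latter turned under each other scaling.

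Rmst had opposite orders of the fractions at the 2 ages. It lies on the minus strand at chr10:91544491-91627923, where Gm17341 overlaps it on the opposite strand. Its FPKM was 1.49 in P1 pHes1_ENCs, 0.767 in P1 pHes1_EPCs, 0.443 in P4 pHes1_ENCs and 1.35 in P4 pHes1_EPCs. The P1 value was higher in pHes1_ENCs and the P4 value in pHes1_EPCs, and the intervals were apart at both ages. At P1 pHes1_ENCs had 1.95 times the level of pHes1_EPCs (1.17 to 3.37), and at P4 pHes1_EPCs had 3.05 times that of pHes1_ENCs (1.72 to 5.98). These ratios rest on 30 to 84 inferred reads, and the log2 differences of -0.50 and 0.70 are not beyond the threshold. Sox2, the transcription factor known as a partner of Rmst, stood at 34.4 and 119 at P1 and at 8.44 and 117 at P4, in pHes1_ENCs and pHes1_EPCs. Both Rmst and Sox2 had their lowest value in P4 pHes1_ENCs, but at P1 they were in opposite order between the fractions.

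From P1 to P4 most of the 7 RNAs were lower in pHes1_ENCs. There 6 of 7 were below 0, with a median of -0.63, and Miat (-2.45) and Snhg11 (-1.44) were called lower. The median change in pHes1_ENCs was 0 over all genes and -0.007 over those that reached an FPKM of 1 in 1 library or more. The share of all genes below 0 was not counted, so the 6 of 7 has no share to be set against. Of all genes, 5.94% were called lower there and 2.77% higher. Among those that reached an FPKM of 1 in the higher library, 10.5% were called lower and 4.88% higher. Snhg11 at P1 had 12.8 times its P4 level (8.15 to 22.8). In pHes1_EPCs none was called, where 2.57% of all genes were called lower and 4.17% higher, or 4.54% and 2.13% with FPKM rescaled to the same total. The median of the members was 0.13 there. Snhg11 (-0.98) and Malat1 (-0.97) were close to the threshold in pHes1_EPCs and passed it under each other scaling, and the P1 level of Snhg11 was 4.51 times its P4 level (3.09 to 7.0). The intervals of the ages were apart for all 7 members in pHes1_ENCs and for 5 in pHes1_EPCs, as they were for 38.1% and 41.8% of all genes, or 59.8% and 68.1% of those that reached an FPKM of 1 in the higher library. Both comparisons between the ages share their libraries with both comparisons between the fractions, so they are not independent of them.

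**Figure D5:**
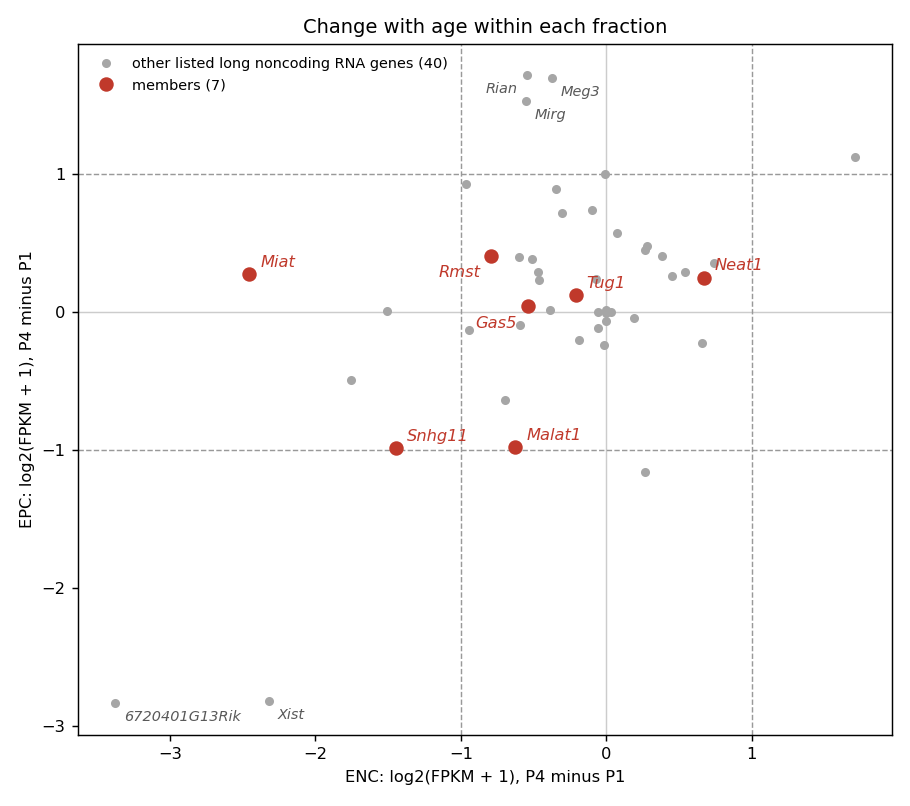
Change of log2(FPKM + 1) from P1 to P4 in pHes1_ENCs (horizontal axis) and in pHes1_EPCs (vertical axis) for the 7 members in red and 40 other listed long noncoding RNA genes in grey; dashed lines mark the threshold of 1. Miat lies at -2.45 and 0.28, and Snhg11 at -1.44 and -0.98.

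The gap between the fractions widened most for Miat. The log2 difference at P4 minus that at P1 was 2.73 for Miat, the 64th highest of 21829 genes, and 1.20 for Rmst. These 2 members exceeded 1, which 7.18% of all genes did, while 1.49% were below -1. It was 0.59 for Gas5, 0.46 for Snhg11, 0.34 for Tug1, -0.35 for Malat1 and -0.42 for Neat1. The sign of the difference between the fractions was opposite at P1 and P4 for Neat1, Rmst and Snhg11, as for 20.1% of all genes. The sign of the change with age was opposite in the fractions for Miat, Tug1, Rmst and Gas5, as for 27.8%. Among genes that reached an FPKM of 1 in 1 library or more, 23.1% and 33.8% had such opposite signs.

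Some other long noncoding RNAs also differed between the fractions, in both directions. Among those listed and found, the differences ran from -2.08 to 3.47 at P4, where that of Miat was 2.81. Of 75 listed genes in 4 lists 40 were found; 2 were called higher and 5 lower in pHes1_EPCs at P1, and 7 higher and 6 lower at P4. Under the other scalings 3 or 4 were called higher and 6 lower at P4. Next to developmental regulators 9 of 23 were found. Sox2ot, which overlaps Sox2, stood at 5.44 and 18.2 at P1 and at 2.30 and 35.5 at P4, in pHes1_ENCs and pHes1_EPCs, with log2 differences of 1.58 and 3.47. Six3os1, next to the eye field gene Six3, stood at 79.7 and 166 at P1 and at 22.9 and 118 at P4, with differences of 1.05 and 2.32. Like Miat, both had their lowest value in P4 pHes1_ENCs.

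Several imprinted noncoding RNAs went the other way. Meg3, Rian and Mirg come from 1 imprinted cluster. Meg3 stood at 258 and 13.6 at P1 and at 198 and 46.3 at P4, in pHes1_ENCs and pHes1_EPCs, and Rian at 77.7 and 5.45 and at 52.9 and 20.2. The log2 differences of Meg3 were -4.15 and -2.08, for P1 and P4, and those of Rian were -3.61 and -1.35. Of the 10 genes found in this list of imprinted or X-linked dosage RNAs, 5 were called lower at P1 and 4 at P4, and none was called higher. Xist, which silences an X chromosome in females, was called lower at P4 than at P1 in either fraction; it fell by 2.32 in pHes1_ENCs and by 2.82 in pHes1_EPCs. The sex of the animals is not given in the sources used here. In the remaining list of 11 genes, host genes of miRNAs among them, 1700020I14Rik was called lower at P4 (-1.45), and none was called at P1.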

How the data were processed

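RNA of sorted retinal cells was sequenced in 4 libraries as single-end reads of 36 bases from randomly primed cDNA. The authors aligned the reads to NCBI37/mm9 with TopHat 2.0.8b, allowing up to 50 positions per read, and deposited the gene FPKM of Cufflinks 2.1.1, in which each of 23021 lines carries a 95% interval and a status. Whether polyadenylated RNA was selected and whether strand was used are not given in the sources used here. Small RNAs were left out by symbol (795 lines), and of repeated symbols the line with the highest summed FPKM was kept. Groups were fraction and age, with 1 library each, so no test was made. Differences used log2(FPKM + 1), and ranges of ratios came from the interval bounds. Named genes are the members, Hes1, listed genes beyond 1 at P1 or P4 with an FPKM of at least 10 in 1 library, examples by level or role, nearest genes, and the 3 genes most alike to each member; some genes that this rule names are not reported here. Outside this rule, Snhg4, Snhg10, Mirg, Upf1, Sf1, Pspc1 and other listed genes named as examples were chosen after their values were seen. The members and lists were chosen with earlier results of these data known. Annotation was GENCODE M1 and RefSeq. Alternatives were other pseudocounts, scalings, filters, summed lines, status OK only and interval overlap; their effect is given in the closing section. The scalings of the gene lists and of the shares of all genes were added after seeing the data. Python 3.11.15, numpy 2.4.6 and pandas 2.3.3 were used, and the procedure was tested on simulated data.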

Additional observations from a re-analysis of the deposited data

Results flagged for a closer look

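For 6 of the 7 genes the difference between the fractions, or the change with age, had opposite signs in the groups compared; 3 had opposite signs of the fraction difference at P1 and P4 and 4 had opposite signs of the change from P1 to P4 in pHes1_ENCs and pHes1_EPCs. With 1 library per group these differences were not tested. Over all genes, 20.1% had opposite signs between the ages and 27.8% between the fractions. For genes that reached an FPKM of 1 in 1 library or more these shares were 23.1% and 33.8%. The share of genes with either was not counted, so the 6 of 7 has no share to be set against. The log2 difference between the fractions at P4 minus that at P1 was 2.73 for Miat, which fell in pHes1_ENCs and was not called in pHes1_EPCs, and 1.20 for Rmst, whose fractions changed order between the ages. It was -0.42 for Neat1, 0.34 for Tug1, 0.59 for Gas5 and 0.46 for Snhg11. The signs of the small changes of Miat, Tug1 and Gas5 within pHes1_EPCs, and of Snhg11 between the fractions at P1, turned under other scalings.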

How the results depend on the processing

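No paired analysis was possible because each group holds 1 library and the labels give no replicate numbers, and with 1 library a group no library could be left out. Of 263 values of single members under the alternatives, 202 stayed within the margin given by the intervals of the quantifier and 61 moved beyond it. None that was called turned its sign, and 11 that were not called did. Summed lines and status OK only could not move a value, since each member has 1 line and a status of OK throughout. The FPKM filter only dropped values. The 202 thus include values that were fixed in advance. Without a pseudocount 4 members were called between the fractions at P4, with Rmst and Snhg11 added, against 2. From P1 to P4 in pHes1_ENCs 4 were called with a pseudocount of 0.1 and 4 without one, with Neat1 and Rmst added, against 2. In pHes1_EPCs 1 was called with either of these, Snhg11, and 2 with FPKM rescaled to the same total, with median-of-ratios scaling and with quantile normalization, Malat1 and Snhg11, against 0. The gap between the ages was beyond 1 for 1 member, Miat, under quantile normalization, against 2, and for 3, Miat, Rmst and Snhg11, with a pseudocount of 0.1 and with none. By intervals that do not overlap, 5 members differed at P1, 7 at P4, 7 with age in pHes1_ENCs and 5 with age in pHes1_EPCs, where 43.9%, 46.9%, 38.1% and 41.8% of all genes did. The calls of Miat held under each alternative run; that of Gas5 was lost with FPKM rescaled to the same total. Depth limits Neat1, Rmst and Snhg11, with 29 to 267 inferred reads.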

Other observations

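Genes next to the members were read as well. Zbtb37, 906 bases upstream of Gas5, stood at 4.79 and 3.79 at P1 and at 3.76 and 0.868 at P4, in pHes1_ENCs and pHes1_EPCs, with log2 differences of -0.27 and -1.35, opposite in sign to those of Gas5. Morc2a, 685 bases from Tug1, had differences of -0.53 and -0.23, where those of Tug1 were 0.12 and 0.46. Cryba4, a lens crystallin gene 17.6 kb from Miat, stood between 0 and 0.210 in the 4 libraries, so the nearest gene line on this side was close to silent. Frmd8, 5.50 kb from Neat1, had differences of 0.68 and 0.84. The tables also list Mir1251, which lies inside Rmst, and Mir135a-2, which lies nearby; both were at 0 in all 4 libraries. Snord47, inside Gas5, has listed FPKM far outside its own intervals and was not read.

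The genes most alike to the remaining members over the 4 libraries, by the distance used for Miat, were Slc36a4, Fbxl18 and Prrc2c for Malat1 (0.170 to 0.207), Dnttip2, Ccl19 and Gnl1 for Neat1 (0.0368 to 0.0704), and Tstd1, Ugcg and Nol10 for Tug1 (0.0359 to 0.0409). They were Rnf187, Gmpr and Cdk17 for Rmst (0.0378 to 0.0765), Grwd1, Crat and Twf2 for Gas5 (0.0627 to 0.0811), and Dpp6, Gpr161 and Cdh4 for Snhg11 (0.0949 to 0.128). Grwd1 is a ribosome assembly factor, and it stood at 8.41, 14.2, 5.80 and 14.4 in P1 pHes1_ENCs, P1 pHes1_EPCs, P4 pHes1_ENCs and P4 pHes1_EPCs. With 4 values per gene, short distances are common, and nothing is read from them about shared control.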
